A study of Homo sapiens with 4 samples.

Results

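The genes described here are 10 transcripts used as markers of cancer stem cells in ovarian cancer, which were ALDH1A1, ALDH1A2, ALDH1A3, PROM1, CD44, CD24, POU5F1, SOX2, SOX9 and BMI1. They were chosen by symbol, with earlier results of these data known, and each was found once among the 56655 gene symbols of the count tables. Of the 10, 9 passed the filter on low counts and were tested among 16417 genes, and SOX2 was too sparse to test. RNA-seq was performed in OVCAR5, an established ovarian cancer cell line that the labels record as ascites-derived, as high grade serous and at passage 4-6. Cells carried either a nontargeting control short hairpin RNA (shCtrl, n = 2 libraries) or a short hairpin RNA directed against the forkhead transcription factor gene FOXK2 (shFOXK2, n = 2 libraries). In both groups the hairpin was delivered by a lentiviral vector and the transduced cells were selected with puromycin, so the controls also carry an integrated vector. The series describes its replicates as biological duplicates of the transduced line. Whether they came from separate transductions was not given in the sources used here, and the p-values measure only the spread between these libraries.

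Cancer stem cells are the fraction of tumor cells that can renew themselves and seed new tumors, and they are usually isolated by an enzyme activity or by surface proteins. ALDH1A1, ALDH1A2 and ALDH1A3 are cytosolic aldehyde dehydrogenases that oxidize retinaldehyde to retinoic acid, and the ALDEFLUOR assay reads such activity in living cells. PROM1 (the CD133 antigen), CD44 (the hyaluronan receptor) and CD24 (a small glycosylated surface protein) are used for sorting, while POU5F1 (OCT4), SOX2 and SOX9 are transcription factors and BMI1 is a subunit of the Polycomb repressive complex PRC1. All values below are transcript levels in mixed cultures. They are neither enzyme activities nor shares of sorted cells.

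The 4 libraries held between 14284005 and 21950873 counts, and the 10 markers together took 0.208% and 0.186% of the control counts, against 0.173% and 0.15% of the shFOXK2 counts. A level of 3 counts, taken here as the detection floor, was worth from 0.134 to 0.211 CPM, a unit that puts libraries of different depth on the same total, here with TMM factors (trimmed mean of M values). Counts are given as deposited, without correction for depth, and every difference was tested on scaled values. FOXK2, the targeted transcript, gave 1796 and 1499 counts in the controls, compared with 1086 and 1084 in shFOXK2. Both shFOXK2 libraries lay below both controls on the CPM scale, but the log2 fold change of −0.36 (SE 0.25) did not pass the threshold of 0.05 (edgeR quasi-likelihood F test, adjusted p = 0.257). Epithelial identity was checked with EPCAM, which had 2350 and 1515 control counts, against 1142 and 1586 in shFOXK2 (log2 fold change −0.25, SE 0.24, adjusted p = 0.393). Summed over 11 ovarian and epithelial markers, the level was between 4120 and 5487 CPM in shCtrl and between 4104 and 5317 CPM in shFOXK2. WT1, a marker of serous ovarian carcinoma, had at most 2 counts in a library, while PAX8 gave 351 and 335 counts in the controls, compared with 156 and 162 in shFOXK2. KRT20, an intestinal keratin, had 4676 and 3762 control counts, against 1816 and 2685 in shFOXK2. Of the other gastrointestinal markers, CDX2 had 230 and 214 control counts, against 126 and 125 in shFOXK2 (adjusted p = 0.138). LGALS4, VIL1 and CDH17 had at most 17 counts in a library, and CDX1 had 0. Of the 11 ovarian and epithelial markers 10 were tested, 4 fell and 1 rose (50% called, against 48.4% of all tested genes). The marker that rose was MSLN, from 75 and 52 counts to 112 and 116 (log2 fold change 1.105, adjusted p = 0.0151). The keratins KRT7, KRT8, KRT18 and KRT19 were not called (log2 fold changes 0.19, −0.16, 0.36 and −0.47). CDH1 (E-cadherin) fell from 459 and 260 counts to 13 and 24 (log2 fold change −4.02, SE 0.37, adjusted p = 5.12e-06), FOLR1 from 175 and 153 to 41 and 65 (adjusted p = 0.00368), and MUC16 (CA-125), which passed the filter through shCtrl alone, from 397 and 145 to 0 and 8 (adjusted p = 2.45e-05). The part of these differences in the marker results was not tested.

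The promoters of 3 markers are printed because ALDH1A3 and CD24 were the abundant markers that fell in shFOXK2 and ALDH1A1 is the enzyme of the same family that did not pass the test. Sequences are from RefSeq on build GRCh38.p14, each from 250 bases before to 50 bases after an annotated start, written 5′ to 3′ on the minus strand for ALDH1A1 (chr9:72953004-72953303) and CD24 (chr6:106973990-106974289) and on the plus strand for ALDH1A3 (chr15:100879581-100879880). Capitals mark the CCAAT box (CCAAT, or ATTGG when it lies on the opposite strand) and the forkhead core (TGTTTA, or TAAACA on the opposite strand).
ALDH1A1: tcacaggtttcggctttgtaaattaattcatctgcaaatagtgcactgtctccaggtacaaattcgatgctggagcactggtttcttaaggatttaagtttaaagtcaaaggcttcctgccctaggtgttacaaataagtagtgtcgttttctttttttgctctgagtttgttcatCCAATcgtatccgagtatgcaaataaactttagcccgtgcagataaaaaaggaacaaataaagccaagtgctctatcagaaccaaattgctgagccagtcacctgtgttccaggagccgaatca
ALDH1A3: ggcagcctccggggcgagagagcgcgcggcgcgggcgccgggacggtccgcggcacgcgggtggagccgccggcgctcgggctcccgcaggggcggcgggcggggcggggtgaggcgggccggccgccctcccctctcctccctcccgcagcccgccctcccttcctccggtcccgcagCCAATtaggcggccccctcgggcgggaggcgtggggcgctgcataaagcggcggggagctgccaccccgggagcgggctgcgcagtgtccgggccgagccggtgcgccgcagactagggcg
CD24: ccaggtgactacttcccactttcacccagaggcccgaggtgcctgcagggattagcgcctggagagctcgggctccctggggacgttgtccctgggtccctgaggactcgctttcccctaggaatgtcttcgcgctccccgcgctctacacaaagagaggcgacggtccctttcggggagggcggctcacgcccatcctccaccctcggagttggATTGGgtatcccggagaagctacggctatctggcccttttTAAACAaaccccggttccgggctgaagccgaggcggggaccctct
All 3 windows lie inside the interval that GENCODE v44 gives the gene. The GC content was 40.3% in the ALDH1A1 window, 81.7% in the ALDH1A3 window and 63.3% in the CD24 window. Counted from 1 at the 5′ end of the window, the CCAAT box begins at base 177 of ALDH1A1 and at base 180 of ALDH1A3. In CD24 the box on the opposite strand begins at base 216 and the forkhead core on the opposite strand at base 256. The other CD24 windows, chr6:106975578-106975877 and chr6:106975416-106975715, are not printed. They lie nearer the 5′ end of the gene and hold neither motif, so the printed window does not stand for all annotated CD24 starts.

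RefSeq promoter windows were matched for 8 of the 10 markers, 15 windows in all, with none for POU5F1 and SOX9. The 7-base FOXK2 motif TGTTTAC was searched on both strands and occurred in none of the 15 windows, against 3.42% of 35116 promoter windows of the same length. The 6-base core TGTTTA, which is contained in that motif, occurred in 2 of the 15 (13.3%), in 1 of the 3 windows of CD24 (the one printed) and in 1 of the 4 windows of PROM1, against 12.3% of all windows. The CCAAT box occurred in 6 of the 15 (40%), against 34.6% of all windows. These matches describe letters in the windows and not binding of a factor.

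Across the 9 tested markers, 3 fell in shFOXK2 and none rose at an adjusted p under 0.05. The markers that fell were CD24, ALDH1A3 and ALDH1A2, of which ALDH1A2 passed the filter through shCtrl alone. With at least 10 counts required in every library, 2 markers were called lower. The share called was 33.3%, while 48.4% of all tested genes were called, with 25.7% called higher and 22.7% called lower. At an unadjusted p below 0.05, BMI1 was the only tested marker above control, and with the DESeq2 Wald test none of the 9 was called higher. The groups did not overlap in CPM for 6 of the 9 markers (66.7%), against 75.4% of all tested genes. The median log2 fold change of the 9 markers was −0.45, with a range from −1.94 to 0.68, and that of all tested genes was 0.04, with quartiles at −0.70 and 0.88. No test of these shares or medians against all genes was run, and nothing particular to the markers is read from them.

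**Figure D1:**
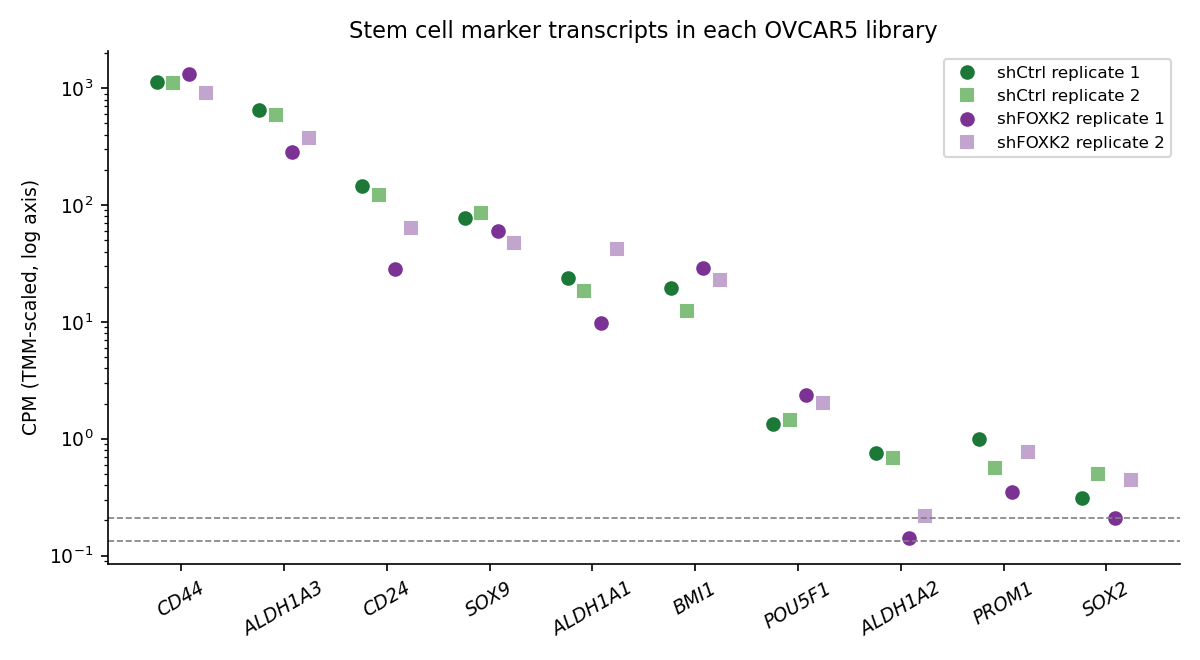
Level of each marker transcript in each library, as TMM-scaled CPM on a log axis, with shCtrl in green and shFOXK2 in purple, and dashed lines at the lowest and highest 3-count floor (0.134 and 0.211 CPM). CD44 lay between 910 and 1321 CPM in all libraries, the shFOXK2 points of CD24 and ALDH1A3 lay below both controls, and ALDH1A2, PROM1 and SOX2 lay under 1 CPM.

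The plot of levels by library shows that the markers spanned more than 3 orders of magnitude, from CD44 to the sparsest markers, ALDH1A2, PROM1 and SOX2. The plot of fold changes shows the same 9 tested markers with their standard errors and with the values reached under other settings of the fit.

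**Figure D2:**
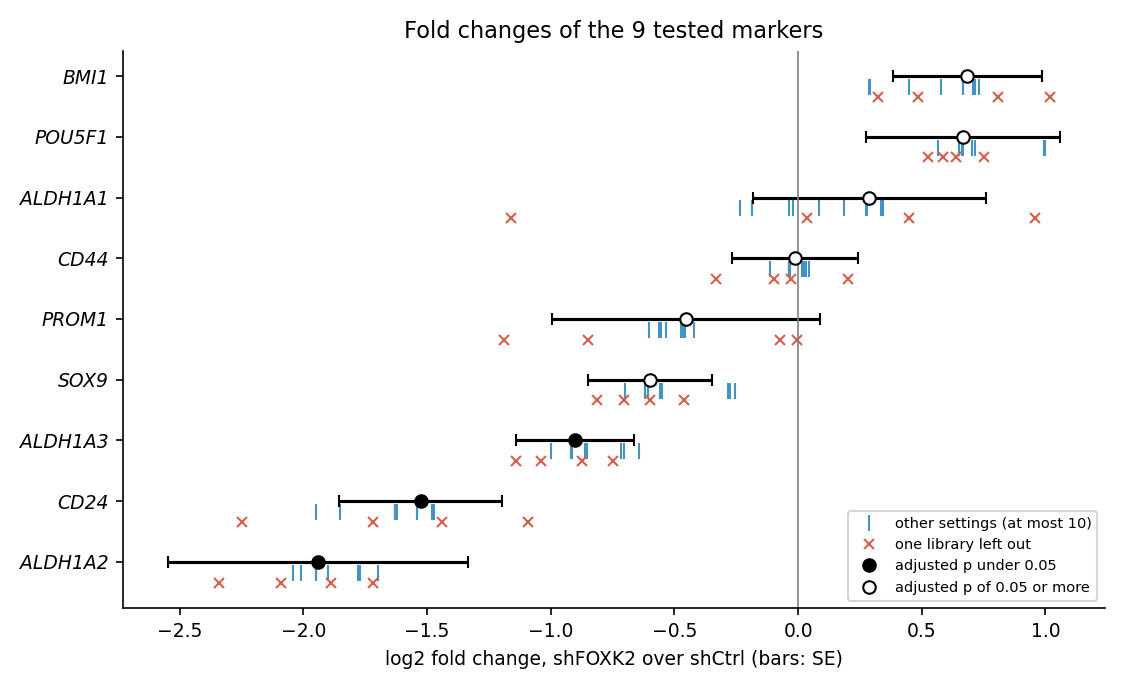
Log2 fold change of the 9 tested markers, shFOXK2 over shCtrl, with bars of 1 SE, filled points where the adjusted p was under 0.05, blue ticks for other settings of the fit and red crosses for fits that left out 1 library. All ticks and crosses of CD24, ALDH1A3 and ALDH1A2 lay below 0, whereas the crosses of ALDH1A1 ran from −1.16 to 0.96.

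Among the enzymes, ALDH1A3 was by far the most abundant and fell to 53.5% of its control level. ALDH1A3 (ENSG00000184254.17, chromosome 15 of hg38, 100877714 to 100916626, plus strand) makes retinoic acid in the developing eye and nose. It had 14412 and 9492 control counts, against 4083 and 6831 under the FOXK2 hairpin. Its level was 619 ± 38.7 CPM in the controls against 331 ± 62.4 CPM in shFOXK2 (mean ± SD, n = 2 libraries per group), and both shFOXK2 libraries lay well below both controls. The log2 fold change was −0.90 (SE 0.24, adjusted p = 0.00724, edgeR). Without shFOXK2 replicate 1 it was −0.75 with an adjusted p of 0.0637, so the call rested on that library. In mixed cultures, fewer cells that express a gene and less of its RNA in each cell cannot be told apart. An antisense RNA, ALDH1A3-AS1, covers 49.4% of the canonical exons of ALDH1A3 and its symbol does not occur in the tables, and since the strand setting of the counting was not stated, reads from the 2 strands cannot be told apart.

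ALDH1A2 was near the detection floor and had fewer counts in shFOXK2. ALDH1A2 (ENSG00000128918.15, chromosome 15, 57953424 to 58497866, minus strand) is the main retinoic acid-forming enzyme of the early embryo. Its control counts were 17 and 11, against 2 and 4 in shFOXK2, so the library with the fewest counts was under the floor of 3 counts. Summed over libraries and scaled for depth, the shFOXK2 level was 0.253 of control (95% exact interval 0.0858 to 0.624, counting error only). In the fit across all genes, ALDH1A2 fell by 1.94 on the log2 scale (SE 0.61, adjusted p = 0.0176, edgeR). ALDH1A2 passed the filter through its counts in shCtrl alone, its adjusted p was 0.172 with the DESeq2 Wald test, and it lost its call whichever of the 4 libraries was left out (adjusted p between 0.0556 and 0.162).

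No direction could be given for ALDH1A1, whose shFOXK2 replicates lay on either side of the controls. ALDH1A1 (ENSG00000165092.13, chromosome 9, 72900671 to 73080442, minus strand) is the isoform most often stained as a stem cell marker. It showed 23.9 and 18.4 CPM in the controls, from 533 and 296 counts. The shFOXK2 libraries gave 9.70 CPM in replicate 1 and 41.9 CPM in replicate 2, from 138 and 762 counts. The first was below both controls and the second above both, and the 95% exact counting intervals of these libraries, 8.15 to 11.5 and 38.9 to 44.9 CPM, did not meet. The log2 gap of 2.10 between the shFOXK2 replicates was larger than that of 99.6% of tested genes. The log2 fold change of 0.29 (SE 0.47, adjusted p = 0.641, edgeR) became −1.16 without shFOXK2 replicate 2 (adjusted p = 0.0151) and 0.96 without shFOXK2 replicate 1 (adjusted p = 0.0224), and with the replicate number as a block it was −0.04.

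The 3 enzymes were compared as levels per length, in CPM per kilobase of canonical transcript. ALDH1A3 made up 94.1% and 95% of the summed ALDH1A level in the controls, against 94.7% and 84.4% in shFOXK2. ALDH1A1 made up 5.76% and 4.9% in shCtrl and 5.3% and 15.6% in shFOXK2. ALDH1A2 made up 0.114% and 0.113% in shCtrl, against 0.0475% and 0.0506% in shFOXK2. The summed level of the 3 was 198 and 179 CPM per kilobase in shCtrl and 87.4 and 128 in shFOXK2, so both shFOXK2 libraries were lower.

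The wider aldehyde dehydrogenase family clears aldehydes from lipids, amino acids and alcohol, and several members can contribute to ALDEFLUOR staining. Of 16 further family genes, 15 were tested, 7 fell and 1 rose. The share called was 53.3%, against 48.4% of all tested genes, and the median log2 fold change was −0.49. ALDH6A1, a mitochondrial enzyme of valine breakdown, fell from 600 and 431 counts to 44 and 147 (log2 fold change −2.25, SE 0.39, adjusted p = 0.000413, edgeR). ALDH4A1, an enzyme of proline breakdown, fell by 1.42 on the log2 scale (adjusted p = 0.00188) and ALDH3B1 by 1.31 (adjusted p = 0.00257). ALDH2, the mitochondrial enzyme of ethanol metabolism, gave 783 and 630 counts in the controls, compared with 229 and 369 in shFOXK2, and fell by 1.03 on the log2 scale (adjusted p = 0.00632). ALDH1B1, its close mitochondrial relative, did not pass (log2 fold change −0.16, SE 0.26, adjusted p = 0.647). ALDH3A1, a cytosolic enzyme of the cornea and of drug detoxification, was the gene that rose, with 21 and 19 control counts against 41 and 349 (log2 fold change 3.39, SE 0.68, adjusted p = 0.00117). Without shFOXK2 replicate 2 the log2 fold change of ALDH3A1 was 1.42.

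**Figure D3:**
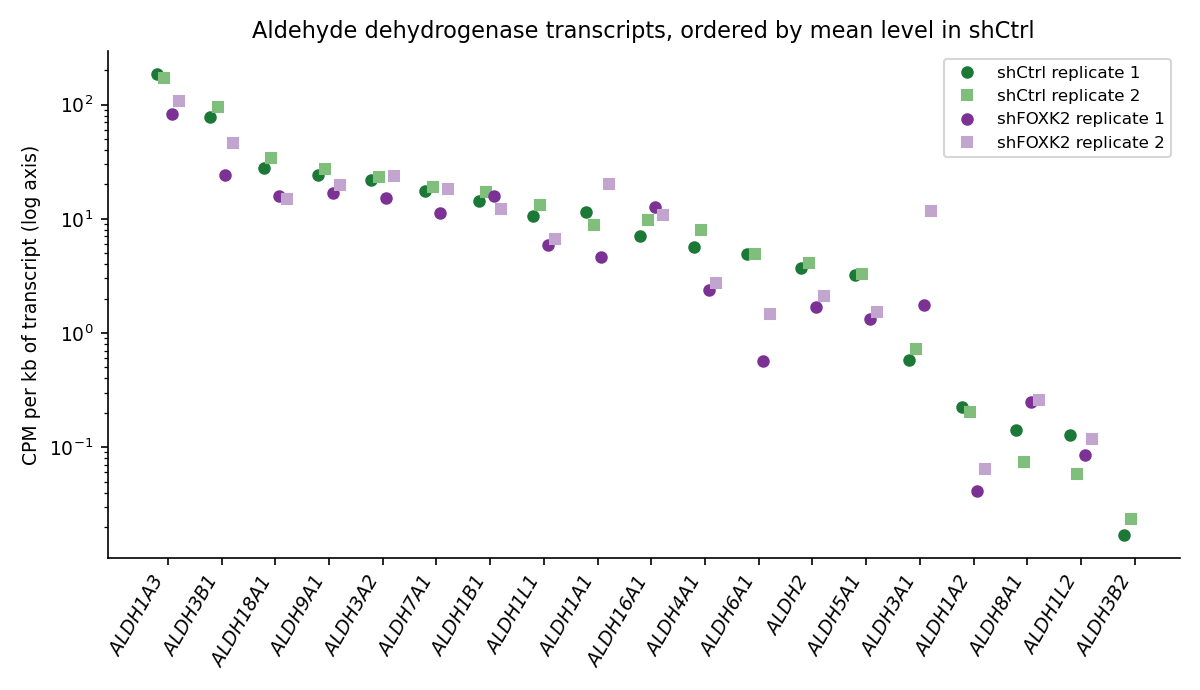
Level of 19 aldehyde dehydrogenase transcripts in each library, as CPM per kilobase of canonical transcript on a log axis, ordered by the mean in shCtrl. ALDH1A3 was the highest in every library, ALDH1A1 and ALDH3A1 were far apart between the shFOXK2 replicates, and the 0 counts of ALDH3B2 in shFOXK2 are not drawn.

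Over all 19 family genes, including the 3 markers, the summed level was 418 and 439 CPM per kilobase in shCtrl and 213 and 300 in shFOXK2. ALDH1A3 alone made up between 36% and 44.5% of it, and ALDH1A1 was 2.73% and 2% in shCtrl and 2.18% and 6.66% in shFOXK2. The next most abundant family gene was ALDH3B1, at 87 ± 11.8 CPM per kilobase in the controls against 35 ± 15.4 in shFOXK2 (mean ± SD, n = 2 libraries per group). Within shFOXK2, replicate 2 was above replicate 1 for 15 of the 18 tested family genes (83.3%), against 50.5% of all tested genes. The largest such ratios were 6.65 for ALDH3A1 and 4.32 for ALDH1A1. What set these 2 libraries apart was not tested.

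The retinoic acid pathway surrounds the ALDH1A enzymes, from uptake of retinol to the nuclear receptors. Of 21 pathway genes outside the ALDH1A enzymes, 18 were tested, 9 fell and 3 rose. The share called was 66.7%, against 48.4% of all tested genes, and the median log2 fold change was −0.69. Beyond the largest rises and falls, the genes below were named for their roles after their values were seen. Upstream, STRA6, the cell surface receptor for retinol uptake, fell from 1226 and 989 counts to 12 and 19 (log2 fold change −5.93, SE 0.34, adjusted p = 2.19e-07, edgeR). LRAT, which stores retinol as esters, rose from 59 and 15 counts to 71 and 108 (log2 fold change 1.57, adjusted p = 0.00966). DHRS3, which reduces retinaldehyde back to retinol, had 6360 and 5221 control counts, against 597 and 2955 in shFOXK2, and fell by 1.58 on the log2 scale (adjusted p = 0.00897). RDH10, which makes the retinaldehyde that the ALDH1A enzymes use, did not pass (log2 fold change −0.10, adjusted p = 0.762).

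Downstream, the 2 carriers of retinoic acid went in opposite directions. CRABP2, which delivers it to the retinoic acid receptors, fell by 1.40 on the log2 scale (adjusted p = 0.00245), and FABP5, a fatty acid-binding protein that also binds it, rose from 112 and 84 counts to 534 and 828 (log2 fold change 3.02, SE 0.29, adjusted p = 6.9e-06). Of the receptors, RARA rose (log2 fold change 0.80, adjusted p = 0.021), and RARG (−0.77), RXRA (−0.96) and RXRB (−1.12) fell, with adjusted p between 0.00356 and 0.0232. RARB gave 46 and 25 counts in the controls, compared with 10 and 30 in shFOXK2 and did not pass (adjusted p = 0.305). The clearing enzymes CYP26A1 and CYP26B1 fell by 1.64 and 1.25 on the log2 scale (adjusted p = 0.039 and 0.0043). CYP26A1 had 14 and 12 control counts, against 2 and 5 in shFOXK2, and passed the filter through shCtrl alone. RARA lost its call without shCtrl replicate 1 (0.65, adjusted p = 0.079) or shFOXK2 replicate 1 (0.50, adjusted p = 0.24), LRAT without shCtrl replicate 2 (0.97, adjusted p = 0.104), and DHRS3 with the DESeq2 Wald test (adjusted p = 0.124) and with an offset on GC content (0.0757) or A content (0.0804). For DHRS3, leaving out shFOXK2 replicate 1 gave a log2 fold change of −0.94, and leaving out shFOXK2 replicate 2 gave −2.89.

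**Figure D4:**
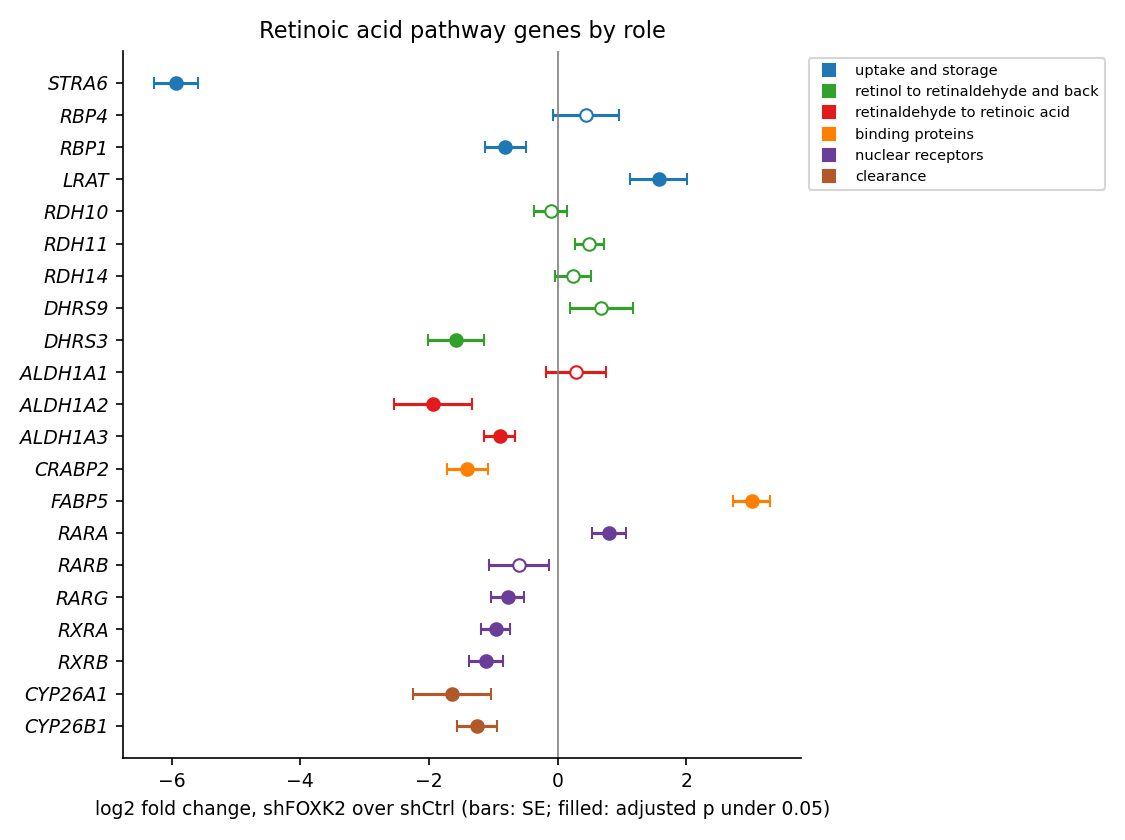
Log2 fold change of the 18 tested retinoic acid pathway genes and the 3 ALDH1A enzymes, shFOXK2 over shCtrl, with bars of 1 SE, filled points where the adjusted p was under 0.05 and colors for the step of the pathway. STRA6 lay furthest to the left at −5.93 and FABP5 furthest to the right at 3.02, with the ALDH1A enzymes in red between them.

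Among the surface markers used for sorting, CD24 fell to 34.7% of control while CD44 did not pass the test. CD24 (ENSG00000272398.6, chromosome 6, 106969831 to 106975627, minus strand) had 3219 and 1960 control counts, against 407 and 1162 in shFOXK2. The levels were 133 ± 15.7 CPM in the controls against 46.2 ± 24.9 CPM in shFOXK2 (mean ± SD, n = 2 libraries per group). The higher shFOXK2 library, at 63.8 CPM, was still below the lower control, at 122 CPM. The log2 fold change was −1.52 (SE 0.33, adjusted p = 0.00198, edgeR), and it passed the threshold in all 10 alternatives and in all 4 fits without 1 library, from −1.09 without shFOXK2 replicate 1 to −2.25 without shFOXK2 replicate 2. Of the 50-base windows of the CD24 transcript, 58.2% have an exact copy elsewhere on the main chromosomes, so any reads counted as unique come from the remainder of the transcript.

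CD44 (ENSG00000026508.21, chromosome 11, 35138882 to 35232402, plus strand) was the most abundant of the markers. The shCtrl libraries had 25360 and 17850 counts and the shFOXK2 libraries 18791 and 16562. In CPM these were 1137 and 1112 in shCtrl, and 1321 and 910 in shFOXK2, 1 library above and 1 below both controls. CD44 thus had a log2 fold change near 0 (−0.01, SE 0.25, 95% interval −0.51 to 0.49, adjusted p = 0.976, edgeR). The interval covers both a modest fall and a modest rise, and gene-level counts do not separate the standard and variant isoforms of CD44. The level of CD44 over that of CD24, both per kilobase of the full transcript, was 3.13 and 3.62 in shCtrl and 18.3 and 5.66 in shFOXK2. The ratio was thus higher in both shFOXK2 libraries and differed widely between them. Its size depends on the length used, since 58.2% of the CD24 windows have a copy elsewhere. Per kilobase of windows without a copy, CD44 was at 211 and 207 in shCtrl and 245 and 169 in shFOXK2. CD24 was then at 164 and 139 in shCtrl and 32.5 and 72.5 in shFOXK2.

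PROM1 (ENSG00000007062.12, chromosome 4, 15963076 to 16084378, minus strand), the sorting antigen CD133, was barely expressed. It gave 22 and 9 counts in the controls, compared with 5 and 14 in shFOXK2, and the groups overlapped. The log2 fold change was −0.45 (SE 0.54, adjusted p = 0.514, edgeR), and the ratio of summed, depth-scaled counts was 0.725 with a 95% exact interval of 0.387 to 1.32. A difference in PROM1 within that interval was not detectable at this depth.

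Genes that act with CD44 or CD24 were examined next, namely hyaluronan synthases and hyaluronidases, other ligands, the ERM proteins that tether CD44 to actin, its splicing regulators and its sheddases. Of 18 such genes, 14 were tested, 7 rose and 2 fell. The share called was 64.3%, against 48.4% of all tested genes, and the median log2 fold change was 0.80. Among those that rose, SIGLEC10 had 1 and 4 control counts, against 11 and 14 in shFOXK2, and passed the filter through shFOXK2 alone. HMMR, a second hyaluronan-binding protein that also acts at the mitotic spindle, rose from 622 and 453 counts to 3636 and 5653 (log2 fold change 3.34, SE 0.25, adjusted p = 1.25e-06, edgeR), and with an offset on A content its log2 fold change was 0.95. SPP1 (osteopontin, a CD44 ligand) had 15 and 7 control counts, against 71 and 53 in shFOXK2 (log2 fold change 2.78, adjusted p = 0.00034). RDX (radixin) rose by 2.31 on the log2 scale (adjusted p = 0.000107) and by 1.24 with an offset on A content, and its relative MSN (moesin) fell by 1.02 (adjusted p = 0.00285). MMP14, a membrane protease that cleaves CD44, fell from 4087 and 3215 counts to 720 and 826 (adjusted p = 3.36e-05).

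Of 17 other surface markers of stem or progenitor cells, 11 were tested, 4 rose and 3 fell. The share called was 63.6%, against 48.4% of all tested genes, and the median log2 fold change was −0.26. NT5E (CD73) rose from 3210 and 1599 counts to 5951 and 6527 (log2 fold change 1.67, SE 0.25, adjusted p = 0.000176, edgeR). ENG (CD105) rose by 1.35 on the log2 scale (adjusted p = 0.00119) and ALCAM (CD166) by 1.25 (adjusted p = 0.00482), although ALCAM did not pass with an offset on A content (0.18, adjusted p = 0.485). L1CAM, an adhesion molecule of neurons and of carcinomas, fell from 1466 and 1056 counts to 78 and 43 (log2 fold change −4.08, SE 0.37, adjusted p = 4.39e-06). The tetraspanin CD9 fell by 1.88 (adjusted p = 5.11e-05) and MCAM (CD146) by 1.74 (adjusted p = 6.97e-05). Surface markers thus moved in both directions.

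Of the pluripotency factors, neither POU5F1 nor SOX2 was shown to differ. POU5F1 (ENSG00000204531.21, chromosome 6, 31164337 to 31180731, minus strand) gave 30 and 23 counts in the controls, compared with 34 and 37 in shFOXK2. The levels were 1.39 ± 0.0623 CPM in the controls against 2.21 ± 0.253 CPM in shFOXK2 (mean ± SD, n = 2 libraries per group), with both shFOXK2 libraries above both controls. The ratio of summed, depth-scaled counts was 1.58 (95% exact interval 1.09 to 2.31, counting error only). Its log2 fold change was 0.67 (SE 0.39, adjusted p = 0.177, edgeR), and it passed with an offset on GC content (1.00, adjusted p = 0.0382) or on A content (0.99, adjusted p = 0.0415). POU5F1 has processed copies in the genome, and 71% of its 50-base windows have an exact copy elsewhere on the main chromosomes. On alternative or unplaced sequences 82.6% of its windows have a copy, and whether the authors aligned to those sequences was not stated. The counts of POU5F1 therefore cannot be assigned with certainty.

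SOX2 (ENSG00000181449.4, chromosome 3, 181711925 to 181714436, plus strand) had 7 and 8 control counts, against 3 and 8 in shFOXK2. The levels overlapped, at 0.314 and 0.498 CPM in shCtrl and 0.211 and 0.439 CPM in shFOXK2, and 1 shFOXK2 library was at the floor. Its 95% exact counting intervals were 0.126 to 0.646 and 0.215 to 0.982 CPM in shCtrl and 0.0435 to 0.616 and 0.19 to 0.866 CPM in shFOXK2. The ratio of summed counts was 0.867 (95% exact interval 0.36 to 2.02), so neither a fall nor a rise within that interval was detectable at this depth. NANOG, the partner of OCT4 and SOX2 in embryonic stem cells, had 0 counts in every library, which allows at most 3.69 counts in each (upper limit of the exact interval), or between 0.165 and 0.259 CPM.

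Of 18 further pluripotency genes, NANOG among them, 5 were tested and 3 had 0 counts in every library. Of the 5 tested, 1 rose and 1 fell (40% called, against 48.4% of all tested genes, median log2 fold change 0.47). SALL4, a zinc finger factor of embryonic stem cells, rose from 22 and 18 counts to 34 and 71 (log2 fold change 1.59, SE 0.42, adjusted p = 0.00672, edgeR). MYC, the growth-promoting factor also used in reprogramming, gave 2671 and 2396 counts in the controls, compared with 1098 and 968 in shFOXK2, and fell (log2 fold change −1.05, SE 0.26, adjusted p = 0.00516). KLF4 had 464 and 327 control counts, against 545 and 350 in shFOXK2 (log2 fold change 0.48, adjusted p = 0.236). LIN28B had 1 count in 1 shFOXK2 library and 0 elsewhere.

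SOX9 was lower in both shFOXK2 libraries, by a difference that did not pass the threshold. SOX9 (ENSG00000125398.8, chromosome 17, 72121020 to 72126416, plus strand) is a factor of cartilage and of epithelial progenitors. It had 1727 and 1373 counts in shCtrl and 860 in each shFOXK2 library, or 77.4 and 85.5 CPM in shCtrl and 60.5 and 47.2 CPM in shFOXK2. The groups did not overlap. The log2 fold change was −0.60 (SE 0.25, 95% interval −1.09 to −0.11) with an adjusted p of 0.0636 by edgeR. SOX9 passed with no filter on low counts (adjusted p = 0.0442), with crossed replicate numbers as a block (0.034) and without shCtrl replicate 1 (0.0447), and its log2 fold change was −0.25 with an offset on A content.

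The SOX family was read beside SOX2 and SOX9. Of 17 other SOX genes, 9 were tested, 2 rose and none fell, and 4 had 0 counts in all libraries. The share called was 22.2%, against 48.4% of all tested genes, and the median log2 fold change was 0.42. SOX4, a factor of progenitor cells that is often raised in carcinomas, rose from 1493 and 1016 counts to 1563 and 2817 (log2 fold change 1.02, SE 0.25, adjusted p = 0.00462, edgeR), and lost its call without shFOXK2 replicate 2 (0.72, adjusted p = 0.0844). SOX8, a close relative of SOX9, rose by 0.92 on the log2 scale (SE 0.35, adjusted p = 0.0407), and with the replicate number as a block its adjusted p was 0.0611.

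BMI1 was higher in both shFOXK2 libraries, again without passing the threshold. BMI1 (ENSG00000168283.14, chromosome 10, 22321099 to 22331484, plus strand) stimulates the ubiquitin ligase of PRC1 and represses the CDKN2A locus. It gave 439 and 200 counts in the controls, compared with 410 and 418 in shFOXK2, or 19.7 and 12.5 CPM in shCtrl and 28.8 and 23.0 CPM in shFOXK2. The groups did not overlap, but the controls were far apart, with a log2 gap of 0.66 that was larger than that of 82.9% of tested genes. Its log2 fold change was 0.68 (SE 0.30, 95% interval 0.09 to 1.27) with an adjusted p of 0.076 by edgeR, and without shCtrl replicate 1 it was 1.02 (adjusted p = 0.0134). It was 0.32 without shCtrl replicate 2 (adjusted p = 0.457) and 0.29 with an offset on GC content (adjusted p = 0.278). The read-through gene COMMD3-BMI1 covers 28.2% of the BMI1 canonical exons on the same strand and had 0 counts in all libraries. How reads in shared exons were counted was not stated, so these 0 counts do not show that the read-through RNA was absent.

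Of 16 genes listed as PRC1 subunits or their target CDKN2A, 15 were tested, 1 fell and none rose. The share called was 6.67%, against 48.4% of all tested genes, and the median log2 fold change was 0.13. PHC1, a polyhomeotic subunit, fell from 188 and 129 counts to 62 and 29 (log2 fold change −1.49, SE 0.42, adjusted p = 0.0106, edgeR), and without shFOXK2 replicate 2 its adjusted p was 0.0514. CDKN2A, a locus that BMI1 is known to repress, had 0 counts in every library, shCtrl included, so its counts show nothing about that repression. The counts of calls in this list moved with the base composition offsets, to 3 higher and 3 lower with GC content and to 3 higher and 2 lower with A content.

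**Figure D5:**
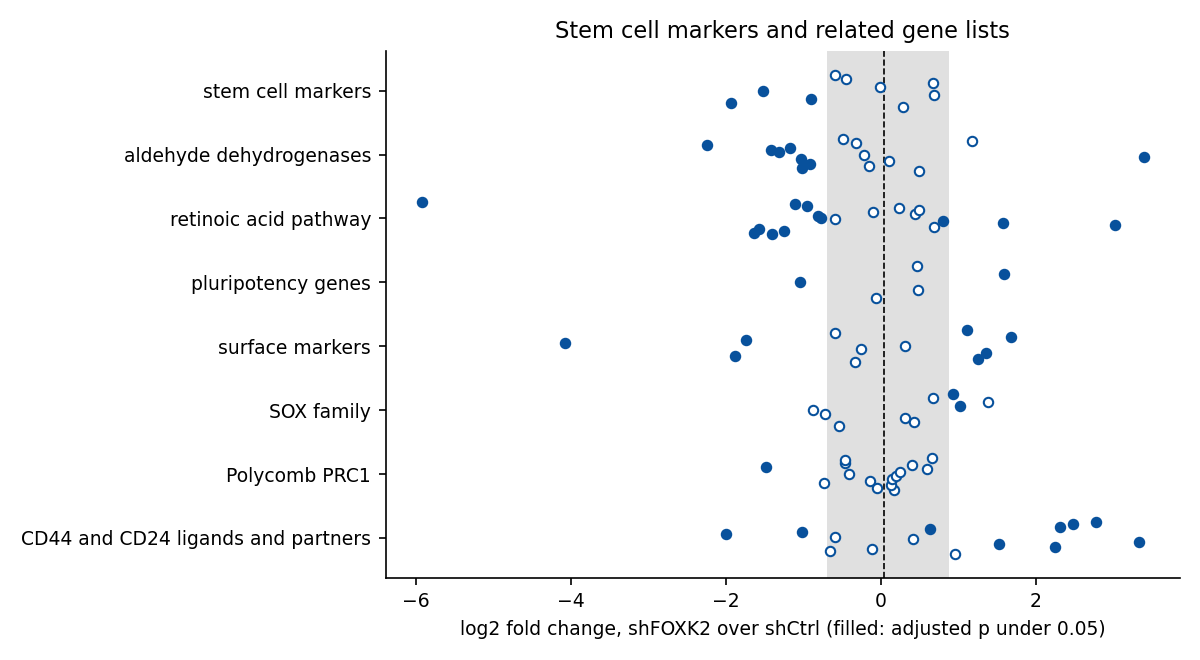
Log2 fold change of every tested gene of the marker list and of 7 related lists, shFOXK2 over shCtrl, with filled points where the adjusted p was under 0.05, a dashed line at the median of all tested genes (0.04) and grey shading between the quartiles of all tested genes (−0.70 to 0.88). The 3 filled points of the stem cell markers lay left of the shading, and 1 of the 15 Polycomb points was filled.

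CD44 and ALDH1A3 were the 2 highest markers per length in every library. In CPM per kilobase, CD44 was at 207 ± 3.23 in shCtrl and 205 ± 53.5 in shFOXK2, and ALDH1A3 was at 178 ± 11.2 and 95.5 ± 18 (SD, n = 2 each). CD24 followed at 61.8 ± 7.28 in shCtrl and 21.4 ± 11.6 in shFOXK2, and SOX9 at 20.7 ± 1.46 and 13.7 ± 2.38. In shCtrl the ranges of these 4 markers did not overlap. The next were ALDH1A1 at 10.1 ± 1.84 in shCtrl and 12.3 ± 10.8 in shFOXK2, BMI1 at 4.54 ± 1.44 and 7.31 ± 1.17, and POU5F1 at 0.986 ± 0.0442 and 1.57 ± 0.179. ALDH1A2, PROM1 and SOX2 closed the order in shCtrl at 0.214 ± 0.016, 0.192 ± 0.0748 and 0.162 ± 0.052. There the range of PROM1 (0.139 to 0.245) overlapped those of ALDH1A2 (0.202 to 0.225) and SOX2 (0.125 to 0.198). The shCtrl ranges of ALDH1A2 and SOX2 did not overlap each other. In shFOXK2 the range of ALDH1A1 (4.63 to 20) overlapped those of CD24 (13.3 to 29.6), SOX9 (12 to 15.4) and BMI1 (6.49 to 8.14), the ranges of CD24 and SOX9 overlapped each other, and that of PROM1 (0.0874 to 0.191) overlapped that of SOX2 (0.084 to 0.175), so these orders were not resolved. Per kilobase of windows without a copy elsewhere on the main chromosomes, the shCtrl level of CD24 was 151 and that of POU5F1 was 3.52. This alternative was added after seeing the data and leaves aside copies on alternative or unplaced sequences.

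Summed markers of fibroblasts, endothelium and leukocytes were at most 22.8 CPM in a library, and their part in the marker differences was not tested. Over all tested genes, 25.7% were called higher and 22.7% lower. Of 7 fibroblast markers, 2 were tested and 1 fell. Their summed level ran from 19.1 to 20.6 CPM in shCtrl and from 13.7 to 16.5 CPM in shFOXK2. The marker that fell, PDGFRB, had 127 and 87 control counts, against 2 and 8 in shFOXK2, and passed the filter through shCtrl alone. Of 5 endothelial markers, 2 were tested and both fell, with sums of 10.6 and 7.72 CPM in shCtrl and 0.703 and 2.03 CPM in shFOXK2. Of these 2, CDH5 had 76 and 33 control counts, against 0 and 0 in shFOXK2, and passed the filter through shCtrl alone. Of 6 leukocyte markers, 2 were tested and 1 fell, with sums of 18.5 and 22.8 CPM in shCtrl and 9.77 and 9.998 CPM in shFOXK2. PTPRC (CD45), the defining leukocyte marker, had 3 counts in 1 shFOXK2 library and 0 elsewhere. Of 6 gastrointestinal markers, 4 were tested, 1 rose and 1 fell. Their sums ran from 221 to 249 CPM in shCtrl and from 139 to 157 CPM in shFOXK2. The marker that rose, LGALS4, had 3 and 1 control counts, against 15 and 16 in shFOXK2, and passed the filter through shFOXK2 alone. Most of the gastrointestinal sum was KRT20, at 209.6 and 234 CPM in the controls against 128 and 147.5 CPM in shFOXK2.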

How the data were processed

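Poly(A) RNA of 4 OVCAR5 libraries (shCtrl n = 2, shFOXK2 n = 2) was sequenced as single-end 50-base reads. The authors aligned the reads to hg38 with STAR 2.5.2, and HTSeq gave the raw, unscaled counts for each gene symbol that were deposited. The strand setting, the annotation and the HTSeq version were not given in the sources used here. HTSeq by default discards reads with several equally good positions, which lowers the counts of copied transcripts.

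Groups and replicate numbers are those of the titles. Low counts were removed with filterByExpr, libraries were scaled by TMM (the trimmed mean of M values), and the groups were compared with edgeR 4.0.16 (R 4.3.3, glmQLFTest, 2-sided), adjusting by Benjamini-Hochberg over 16417 genes at a threshold of 0.05. Every adjusted p is from this fit unless another is named. Each SE was obtained from the F statistic and the log2 fold change, and 95% intervals of log2 fold changes are 1.96 SE on each side. An exact permutation test of 2 against 2 libraries cannot go below 0.333, so the p-values rest on variance shared between genes. The script was tested on simulated data. Counting intervals are exact Poisson intervals, and ratios of summed counts have exact binomial intervals conditional on their sum (95%). Intervals and the floor of 3 counts cover counting error only.

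The replicate numbers of the titles are not said to mark a shared batch, so the fit has no block. Deviations of same-numbered libraries had a correlation of −0.113 after removing each group's mean. With 2 libraries per group, this value cannot show whether a batch was shared. Replicates were distinct libraries (chi-square 38.1 per gene in shCtrl and 27.9 in shFOXK2). Alternatives were DESeq2 size factors, total counts alone, no filter, at least 10 counts in every library, the DESeq2 1.42.0 Wald test, a replicate block, lowess offsets (span 0.2) on transcript GC content (also with the block) or A content, another prior count, the longest transcript, and each library left out. A crossed block and a length of windows without a copy elsewhere on the main chromosomes were added after seeing the data.

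Positions, lengths and composition came from canonical transcripts of GENCODE v44 (hg38), with 36901 of 56655 symbols (65.1%) matched. Composition was known for 87.7% of tested genes, 84.7% of called genes and 10 of 10 members. Copies of 50-base windows were sought in hg38 with BLAST+ 2.17.0, and promoter sequences came from RefSeq. The members and the related lists were chosen with earlier results of these data known. Genes named outside the members were FOXK2, up to 3 rises and 3 falls per list at a mean log2 CPM of at least 0, cell type markers, and NANOG, KLF4, MYC, LIN28B, ALDH2, ALDH1B1, EPCAM and CDKN2A, and exceptions are stated where they occur.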

Additional observations from a re-analysis of the deposited data

How the results depend on the processing

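Among the 9 tested markers, 75 values kept direction and side of the threshold over the settings that used all libraries, 8 reversed, 4 became stronger and 1 weaker. Over the fits without 1 library these numbers were 26, 2, 3 and 5. For ALDH1A1 the sign turned under the replicate block (−0.0365), under crossed numbers (−0.0222), under the A-content offset (−0.187) and under GC offset plus block (−0.233), and it ran from −1.16 to 0.957 when 1 library was left out. For CD44 it turned with total counts alone (0.0222), a minimum of 10 counts (0.0339), the GC offset (0.0438) and GC offset plus block (0.0177), and ran from −0.331 to 0.201 when 1 library was left out. ALDH1B1 turned to 0.186 (GC), 0.18 (GC plus block) and 0.189 (A content), and KLF4 ran from −0.124 to 0.865 without 1 library. The cause was not tested.

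Markers called higher were 1 in place of 0 with either offset alone, and over fits without 1 library markers called higher ran from 0 to 1 and those called lower from 1 to 3. Under GC, GC plus block and A content, genes called higher were 2, 2 and 3 for aldehyde dehydrogenases, 2, 2 and 3 for pluripotency genes, 3, 3 and 3 for PRC1, and 4, 4 and 4 for SOX genes, and PRC1 genes called lower were 3, 3 and 2. Retinoic acid genes called lower were 5 with either offset alone. SOX genes called higher were 1 with the DESeq2 Wald test and 1 with the replicate block, which moved no other count of calls by over 1.5 times. CD44 and CD24 partners called higher were 4 with a minimum of 10 counts, and those called lower were 4 with the crossed pairing. Without 1 library, calls ran from 2 to 4 (partners, lower), 1 to 2 (pluripotency, higher), 0 to 1 (PRC1, higher), 0 to 2 (PRC1, lower), 1 to 2 (SOX, higher) and 0 to 1 (SOX, lower), assuming that a lone library varies like the others.

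The offsets moved the median of all genes by 0.17 (A content), 0.13 (GC) and 0.13 (GC plus block), and no filter by −0.10. Depth limits ALDH1A2, PROM1 and SOX2, with at most 22 counts in a library.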

Other observations

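Detection of pluripotency genes differed between libraries. Of 18 such genes, shFOXK2 replicate 2 had counts for 14, against 8 and 7 in the shCtrl libraries and 7 in shFOXK2 replicate 1. Over all 56655 symbols, 3849 had counts in that library alone, against 1027 and 643 in the shCtrl libraries and 1297 in shFOXK2 replicate 1, although its total of 17733407 counts was not the largest. This comparison was chosen after the values were seen.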
